A study of Mus musculus with 14 samples.

Results

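RNA-seq values were examined for 10 genes of neutrophil granules, neutrophil surface and antiprotease defense in 14 mouse mammary tumors. The genes are Prtn3, Elane, Mpo, Ctsg, Ltf, S100a8, S100a9, Ly6g, Csf3r and Slpi, taken by gene symbol from a table of 56414 genes, where each symbol had 1 row. The set was picked because Prtn3 was lower upon nicotinamide (NAM) treatment in both tumor models and Slpi in one of them, so that the effect of NAM on these genes is given below as a description, without a test. The tumors comprised 8 M/D-driven tumors, 4 of which received NAM, and 6 AT3 tumors, 3 of which received NAM. M/D-driven tumors arose in the mammary glands of female C57BL/6 mice that received, at 6 to 9 weeks of age, a subcutaneous 90-day pellet with 50 mg of the progestin medroxyprogesterone acetate (MPA, M) and then 6 gavages of 200 µL of the carcinogen dimethylbenz[a]anthracene (DMBA, D) at 5 mg per mL, in untreated and treated mice alike. AT3 tumors grew from cells of the AT3 mouse mammary carcinoma line injected under the skin of C57BL/6 mice, so that all 6 derive from 1 cell line. NAM, a form of vitamin B3, was given at 0.5% in the drinking water for 10 days, starting when mice with tumors of 0.25 cm2 were randomized. Each tumor gave 1 library. All untreated M/D-driven tumors and NAM-treated tumors 2, 3 and 4 belonged to experiment 1, NAM-treated M/D-driven tumor 1 was the only tumor of experiment 2, and the AT3 tumors made up experiment 3.

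Neutrophils are built in the bone marrow, where successive stages of maturation fill successive kinds of granules. Promyelocytes make the primary granule proteins, among which proteinase 3 (Prtn3), neutrophil elastase (Elane) and cathepsin G (Ctsg) are serine proteases and myeloperoxidase (Mpo) generates hypochlorous acid, whereas lactoferrin (Ltf), an iron-binding protein, enters the secondary granules later. The messenger RNAs of primary granule proteins are largely shut off before neutrophils leave the marrow. S100a8 and S100a9 form calprotectin, an abundant cytosolic protein of mature neutrophils, Csf3r is the receptor of the granulocyte growth factor G-CSF, and Ly6g is a surface antigen by which mouse neutrophils are recognized. Slpi, the secretory leukocyte protease inhibitor, blocks elastase and cathepsin G and is secreted by epithelia as well as by phagocytes. Ltf and calprotectin are also made by epithelial cells, including those of the mammary gland.

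The promoters of the genes on which the results turn are printed here because Prtn3 and Elane are close neighbors on chromosome 10 and S100a8 and S100a9 on chromosome 3, and because Ltf showed the smallest error among the differences between models. Each sequence is the 200 bases before the RefSeq transcription start (GRCm38.p6), read in the direction of transcription, with capitals marking matches to the letters searched. GENCODE M21, another annotation, starts a transcript of Prtn3, Elane, S100a8 and Ltf within these windows.
Prtn3, chr10:79879467-79879666, plus strand: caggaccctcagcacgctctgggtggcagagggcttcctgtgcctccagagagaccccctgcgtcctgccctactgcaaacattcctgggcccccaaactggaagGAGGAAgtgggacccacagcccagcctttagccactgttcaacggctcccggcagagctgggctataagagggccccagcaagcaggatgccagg
Elane, chr10:79886112-79886311, plus strand: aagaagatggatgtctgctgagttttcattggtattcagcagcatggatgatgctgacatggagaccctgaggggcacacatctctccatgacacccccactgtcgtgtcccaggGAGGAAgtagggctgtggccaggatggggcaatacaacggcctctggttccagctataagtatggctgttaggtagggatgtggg
S100a8, chr3:90668871-90669070, plus strand: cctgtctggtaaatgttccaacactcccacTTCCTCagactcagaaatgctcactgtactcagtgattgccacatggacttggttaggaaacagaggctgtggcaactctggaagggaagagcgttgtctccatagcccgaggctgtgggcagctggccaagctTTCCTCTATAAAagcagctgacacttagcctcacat
S100a9, chr3:90695722-90695921, minus strand: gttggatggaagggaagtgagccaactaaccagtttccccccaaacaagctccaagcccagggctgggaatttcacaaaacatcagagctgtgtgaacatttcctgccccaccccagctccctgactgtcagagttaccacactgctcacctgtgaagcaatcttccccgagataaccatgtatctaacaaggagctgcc
Ltf, chr9:111019092-111019291, plus strand: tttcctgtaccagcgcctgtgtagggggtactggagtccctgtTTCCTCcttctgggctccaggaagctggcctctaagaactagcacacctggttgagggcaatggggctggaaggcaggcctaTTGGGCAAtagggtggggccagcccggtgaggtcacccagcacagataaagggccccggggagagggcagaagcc

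The letters searched on both strands were GAGGAA (the purine-rich core bound by ETS factors such as PU.1), TTGCNNAA (C/EBP), TATAAA (the core promoter box) and TGAGTCA (AP-1). The first of these or its complement was found before the start of 6 of the 10 genes, Prtn3, Elane, S100a8, Ly6g, Csf3r and Ltf, and in 19.0% of 32851 promoter windows of the same length. In Prtn3 it lay 95 bases and in Elane 85 bases before the start, and in S100a8 a second match lay 36 bases before the start, directly next to this core promoter box at 30 bases. The latter was found in S100a8 and Ly6g, against 9.96% of all windows, and the C/EBP letters in Ltf, against 7.47%. No window of the 10 genes held TGAGTCA, which 3.66% of all windows held. Such matches are descriptions of sequence and not of binding.

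In the deposited table (build mm10), Prtn3 covers chr10:79879667-79883170 and Elane chr10:79886247-79888216, both on the plus strand. Calprotectin is encoded by S100a8 at chr3:90669070-90670034 on the plus strand and S100a9 at chr3:90692631-90695721 on the minus strand. The other genes are Slpi at chr2:164354071-164356507 (minus strand), Mpo at chr11:87793784-87804411 (plus), Ctsg at chr14:56099881-56102574 (minus), Ly6g at chr15:75155261-75159128 (plus), Csf3r at chr4:126024659-126044975 (plus) and Ltf at chr9:111019290-111042766 (plus). The table joins Slpi with the microRNA gene Mir7678, which lies inside it, and Mpo overlaps Gm11505 on the opposite strand. GENCODE M21 also holds a Prtn3 transcript that starts at position 79874476, 5138 bases upstream of the main one, where it overlaps the first 159 bases of Plppr3 on the opposite strand. The span given for Prtn3 in the deposited table, from position 79879667, lies outside Plppr3, whose highest position is 79874634. No source used here states that reads were counted by strand. Reads of genes that overlap within a given span, as at Slpi and Mpo, therefore cannot be told apart.

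Libraries held between 40936868 and 84178009 reads on genes. NAM-treated M/D-driven tumor 1 stood apart from the other M/D-driven tumors, with the lowest value for 12 of 12 epithelial marker genes and the highest for 11 of 12 markers of precursor B cells. Results that rest on M/D-driven tumors are therefore also given without it, which leaves experiment 1 alone. In NAM-treated AT3 tumors, fold changes rose with transcript length over 16429 genes (Spearman's rho across genes 0.59), while the correlation was -0.04 in M/D-driven tumors. Fold changes are therefore also given after a smooth trend with transcript length and GC content was removed. As these are bulk tumors, fewer cells of a type and less RNA per cell cannot be told apart.

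Prtn3 was well detected in all 14 tumors, while the other primary granule genes were close to the detection limit. Prtn3 had between 104 and 1732 reads per tumor in M/D-driven tumors and between 262 and 1442 in AT3 tumors. Over the 14 tumors, Elane had at most 19 reads, Mpo at most 65 and Ctsg at most 76. To compare levels between genes, normalized counts were divided by the length of the longest transcript. Per kb, the median level of Prtn3 was 435 in M/D-driven tumors, against 4.78 for Elane, 2.76 for Mpo and 2.64 for Ctsg. In AT3 tumors it was 744 for Prtn3, against 1.34 for Elane, 1.48 for Mpo and 0.824 for Ctsg. The lowest Prtn3 level per kb, 81.4, exceeded the highest of Elane (16.4), Mpo (20.1) and Ctsg (69.8) over all tumors. The label of neutrophil granule genes thus did not hold for Prtn3 in these tumors in the sense that its partners in the primary granule were not measured beside it at a comparable level.

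**Figure D1:**
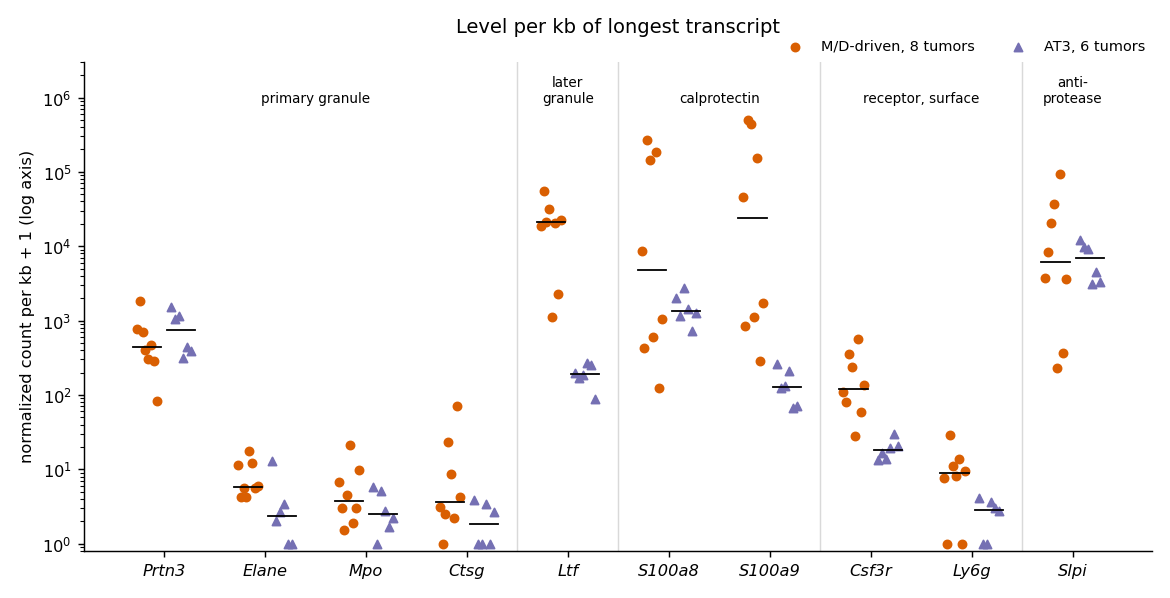
Normalized count per kb of longest transcript, plus 1 (log axis), of the 10 genes, grouped by role, with a point per tumor (circles, 8 M/D-driven tumors, triangles, 6 AT3 tumors) and bars at the medians. Prtn3 lies between 81.4 and 1836 per kb in every tumor, above all values of Elane, Mpo and Ctsg.

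Of a list of 8 further genes of primary granules, 4 were likewise near 0 and 4 were not. The serine protease Prss57 was at or below 34.6 normalized counts in every tumor, the membrane protein Ms4a3 at or below 6.79, the ficolin Fcnb at or below 6.42 and the bactericidal protein Bpi at or below 8.70. These 4 genes did not reach a group mean of 10, the minimum for a test. The granule protease activator Ctsc, which is not restricted to neutrophils, had values from 6522 to 15980 in M/D-driven tumors and from 1820 to 2576 in AT3 tumors. Serpinb1a, an intracellular inhibitor of elastase and proteinase 3, ranged from 271 to 9286 and from 112 to 379, respectively. Lysozyme Lyz2, which macrophages also make, had 66671 to 138730 normalized counts in M/D-driven and 14689 to 52827 in AT3 tumors, and the granule proteoglycan Srgn, found in many blood cells, 693 to 2658 and 304 to 779.

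Prtn3 was lower with NAM in both models. In untreated M/D-driven tumors 1 to 4 it had 781, 1882, 722 and 414 normalized counts, and in NAM-treated tumors 1 to 4 it had 310, 477, 293 and 83.4. These groups overlapped in a single place, since NAM-treated tumor 2 exceeded untreated tumor 4. In AT3 tumors Prtn3 had 1551, 1079 and 1174 normalized counts without NAM and 318, 445 and 397 with NAM. All 3 NAM-treated AT3 tumors were below the 3 untreated ones, as were 11% (2117 of 19281) of all genes tested.

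The log2 fold change of Prtn3 with NAM was -1.73 ± 0.62 (SE, n = 4 and 4) in M/D-driven tumors and -1.71 ± 0.25 (SE, n = 3 and 3) in AT3 tumors, on the log2(normalized count + 1) scale. It was called lower in both models by the rule that chose it, an unadjusted p of at most 0.05 with a fold change of at least 1.5, which called 3.19% of 21700 genes lower in M/D-driven tumors and 10.9% of 19281 genes lower in AT3 tumors. Without NAM-treated tumor 1, within experiment 1, the log2 fold change in M/D-driven tumors was -1.84. Leaving out untreated tumor 2, which had the highest value, gave -1.32 and ended the call. With the length and GC trend removed, it was -1.62 in the M/D-driven and -1.18 in the AT3 model.

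Plppr3, the gene whose start overlaps the upstream Prtn3 transcript, was looked up after these values had been seen. It encodes a phospholipid phosphatase-related membrane protein. In the M/D-driven model its mean went from 1398 ± 554 to 516 ± 275 normalized counts with NAM (SD, n = 4 each), a log2 fold change of -1.45 ± 0.44 (SE). In AT3 tumors it was 1000 ± 447 without NAM and 666 ± 175 with NAM (SD, n = 3 each), a log2 fold change of -0.52 ± 0.36 (SE). Across the 14 tumors, with log2 values centered on the mean of each model, the correlation of Plppr3 with Prtn3 was 0.71. It was 0.77 within the 8 M/D-driven and 0.52 within the 6 AT3 tumors. These correlations include the shift with NAM by which Prtn3 was picked. The share of Prtn3 reads that come from the upstream transcript was not tested.

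Slpi was lower with NAM in AT3 tumors and spread over more than 2 orders of magnitude in M/D-driven tumors. It had 10685, 8623 and 8105 normalized counts in untreated AT3 tumors and 2742, 3891 and 2895 in NAM-treated ones. These groups did not overlap, and 11% of all genes tested were likewise lower in every NAM-treated AT3 tumor. In untreated M/D-driven tumors 1 to 4 it had 3293, 7415, 18162 and 32323 normalized counts. In NAM-treated M/D-driven tumors 1 to 4 it had 204, 81286, 323 and 3202. NAM-treated tumor 2 thus had the highest Slpi of all 14 tumors, while NAM-treated tumors 1, 3 and 4 were below all untreated ones.

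The log2 fold change of Slpi with NAM was -1.53 ± 0.22 (SE, n = 3 and 3) in AT3 tumors, where it was called lower by the rule that chose it, and -0.87 after the length and GC trend had been removed. In M/D-driven tumors it was -2.42 ± 1.78 (SE, n = 4 and 4), not called, while the ratio of the group means pointed the other way, at 15298 ± 12966 normalized counts without and 21254 ± 40046 with NAM (SD, n = 4 each). Tumor 2 decided this value. Without NAM-treated tumor 2 the log2 fold change was -4.20 and was called lower, and without NAM-treated tumor 1 it was -1.32 and was not.

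**Figure D2:**
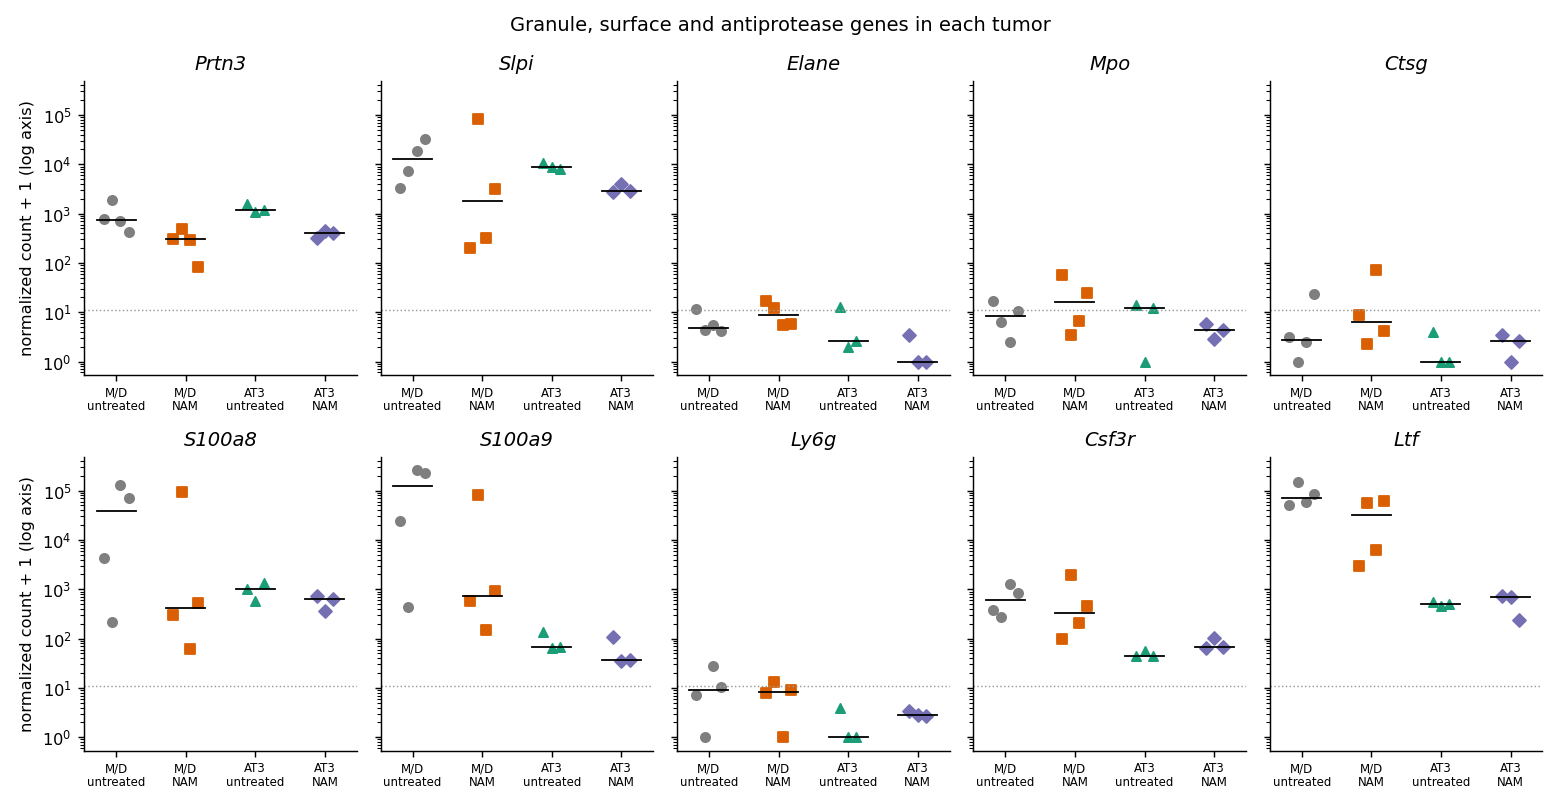
Normalized count plus 1 (log axis) of the 10 genes in each of the 14 tumors, by group, with bars at the medians and a dotted line at a normalized count of 10. Prtn3 and Slpi in AT3 tumors separate by treatment, NAM-treated M/D-driven tumor 2 is the highest square for Slpi, S100a8 and S100a9, and Elane, Mpo, Ctsg and Ly6g lie near the bottom of the axis.

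The length trend in AT3 tumors ran through the same range of fold changes. In the decile of genes with the shortest transcripts (55 to 1204 bases, 1648 genes), the median log2 fold change with NAM was -0.76 in AT3 tumors, and 39.6% of genes were called lower. Prtn3 (1025 bases), Slpi (876 bases), S100a8 (498 bases) and S100a9 (519 bases) all belong to this decile. Within it, 5.58% of genes had a more negative log2 fold change than Prtn3 and 7.40% one more negative than Slpi, whereas 50.5% were below S100a8 and 56.4% below S100a9. S100a8 and S100a9 hence stood at the middle of genes of their length.

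**Figure D3:**
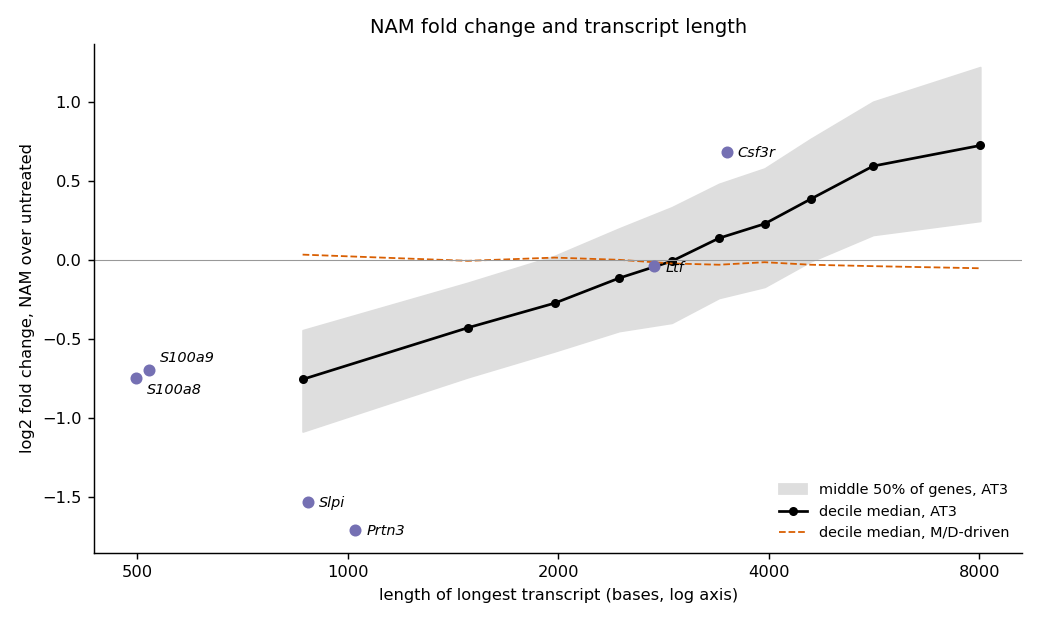
Log2 fold change with NAM against length of the longest transcript (bases, log axis), with the median of each length decile in AT3 tumors (black line, grey band for the middle 50% of genes) and in M/D-driven tumors (dashed line), and the AT3 values of 6 genes as points. The AT3 medians climb from -0.76 to 0.72, the M/D-driven medians stay near 0, and Prtn3 and Slpi lie below the band at their length.

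Calprotectin genes differed between individual M/D-driven tumors by over 3 orders of magnitude. S100a8 had 4244, 214, 132539 and 71665 normalized counts in untreated M/D-driven tumors 1 to 4, and 295, 91728, 60.8 and 529 in NAM-treated tumors 1 to 4. S100a9 had 24150, 444, 261078 and 226774 in the untreated tumors and 586, 80816, 149 and 902 in the NAM-treated ones. The 4 highest values of either gene were those of untreated tumors 1, 3 and 4 and of NAM-treated tumor 2, so that untreated and NAM-treated groups overlapped. The log2 fold changes with NAM were -3.31 ± 2.64 for S100a8 and -4.15 ± 2.46 for S100a9 (SE, n = 4 and 4), neither of them called. Without NAM-treated tumor 2 they were -5.50 and -6.04 and both were called lower, and S100a9 was also called, at -6.14, without untreated tumor 2. Without NAM-treated tumor 1 they were -2.74 and -3.67, and without NAM-treated tumor 3 they were -1.99 and -3.01, not called. They were also smaller with DESeq2 (-1.17 and -2.63), with edgeR (-1.19 and -2.66) and as ratios of group means (-1.17 and -2.64).

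In AT3 tumors, calprotectin was low and even. S100a8 had 1000, 570 and 1370 normalized counts without NAM and 718, 362 and 634 with NAM, and S100a9 had 136, 63.0 and 67.6 without and 108, 33.9 and 36.3 with NAM. The groups overlapped for both genes. Their log2 fold changes were -0.75 ± 0.38 and -0.69 ± 0.53 (SE, n = 3 and 3), and turned to 0.29 and 0.30 once the length and GC trend was removed. Neither was called, although S100a8 was called lower without NAM-treated tumor 1 (-0.94) or untreated tumor 2 (-1.09), and S100a9 without NAM-treated tumor 1 (-1.23).

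The balance within calprotectin differed between models. The ratio of S100a8 to S100a9 normalized counts was between 0.176 and 1.14 in the 8 M/D-driven tumors, with a median of 0.493, and between 6.64 and 20.3 in the 6 AT3 tumors, with a median of 9.87. The ranges did not overlap, and S100a8 exceeded S100a9 in NAM-treated M/D-driven tumor 2 and in every AT3 tumor. A ratio within a library does not depend on its scaling.

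**Figure D4:**
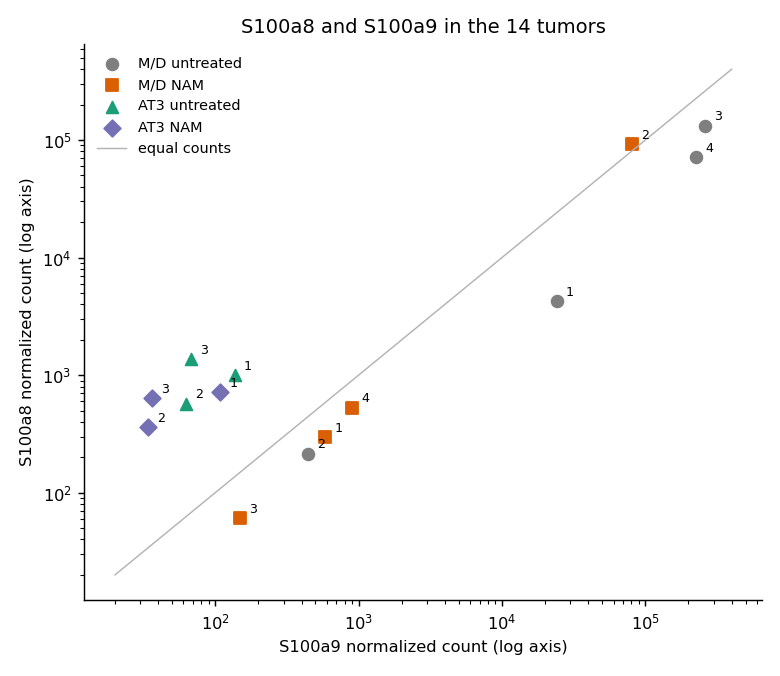
S100a8 against S100a9 (normalized counts, log axes) in the 14 tumors, with replicate numbers beside the points and a line where both counts are equal. The M/D-driven tumors run from 149 to 261078 for S100a9 and lie below the line, except NAM-treated tumor 2 just above it, and the 6 AT3 tumors form a separate group above it.

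The receptor Csf3r had overlapping values in M/D-driven tumors and higher ones with NAM in AT3 tumors, and was called in neither model. It had 376, 276, 1250 and 826 normalized counts in untreated and 95.1, 1942, 203 and 464 in NAM-treated M/D-driven tumors 1 to 4, a log2 fold change of -0.65 ± 0.91 (SE, n = 4 and 4), with -0.01 without NAM-treated tumor 1 and -1.46 without NAM-treated tumor 2. In AT3 tumors it had 43.5, 53.8 and 44.0 normalized counts without and 64.4, 99.7 and 67.7 with NAM. All 3 NAM-treated AT3 tumors exceeded the untreated ones, at a log2 fold change of 0.68 ± 0.36 (SE, n = 3 and 3) that was not called. Of all genes tested, 11.7% were likewise higher in every NAM-treated AT3 tumor. With the length and GC trend removed, the log2 fold change of Csf3r in AT3 tumors was 0.48 ± 0.32 (SE). Csf3r had 30 to 106 reads per AT3 tumor. Ly6g was close to 0 throughout, between 0 and 26.3 normalized counts in M/D-driven tumors, where 2 of 8 tumors were at 0, and between 0 and 2.90 in AT3 tumors, where 2 of 6 were at 0. Ly6g has near-identical relatives, and how reads shared by such genes were assigned is not given in the sources used here, so its level is uncertain.

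Lactoferrin was abundant in M/D-driven tumors, where untreated tumors differed by at most 3.00-fold. Ltf had 51011, 152786, 58541 and 86216 normalized counts in untreated and 3030, 57155, 6270 and 61543 in NAM-treated M/D-driven tumors 1 to 4. NAM-treated tumors 1 and 3 were far below the lowest untreated tumor, and NAM-treated tumors 2 and 4 lay within the untreated range. Its log2 fold change of -2.30 ± 0.99 (SE, n = 4 and 4) was called lower, but the call was lost without NAM-treated tumor 1 (-1.50) or 3 (-1.85), without any one of the 4 untreated tumors (-2.51 to -1.98), and with edgeR (-1.49) or DESeq2 (-1.45). In AT3 tumors Ltf had 546, 461 and 514 normalized counts without and 730, 686 and 237 with NAM, a log2 fold change of -0.04 ± 0.41 (SE, n = 3 and 3).

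For Elane, Mpo and Ctsg, no difference with NAM was detectable at this depth. Elane and, in AT3 tumors, also Mpo, Ctsg and Ly6g did not reach the minimum group mean. In M/D-driven tumors Mpo was highest in NAM-treated tumor 1 (55.2 normalized counts) and Ctsg in NAM-treated tumor 3 (70.0), with log2 fold changes of 0.87 ± 1.02 and 1.25 ± 1.32 (SE, n = 4 and 4). The log2 fold change of Mpo was 0.18 without tumor 1. Thus 9 of the 10 genes were tested in M/D-driven tumors, of which Prtn3 and Ltf were called lower (3.19% of all genes), and 6 in AT3 tumors, of which Prtn3 and Slpi were called lower (10.9% of all genes). The calls of Prtn3 and Slpi are those by which the set was picked.

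**Figure D5:**
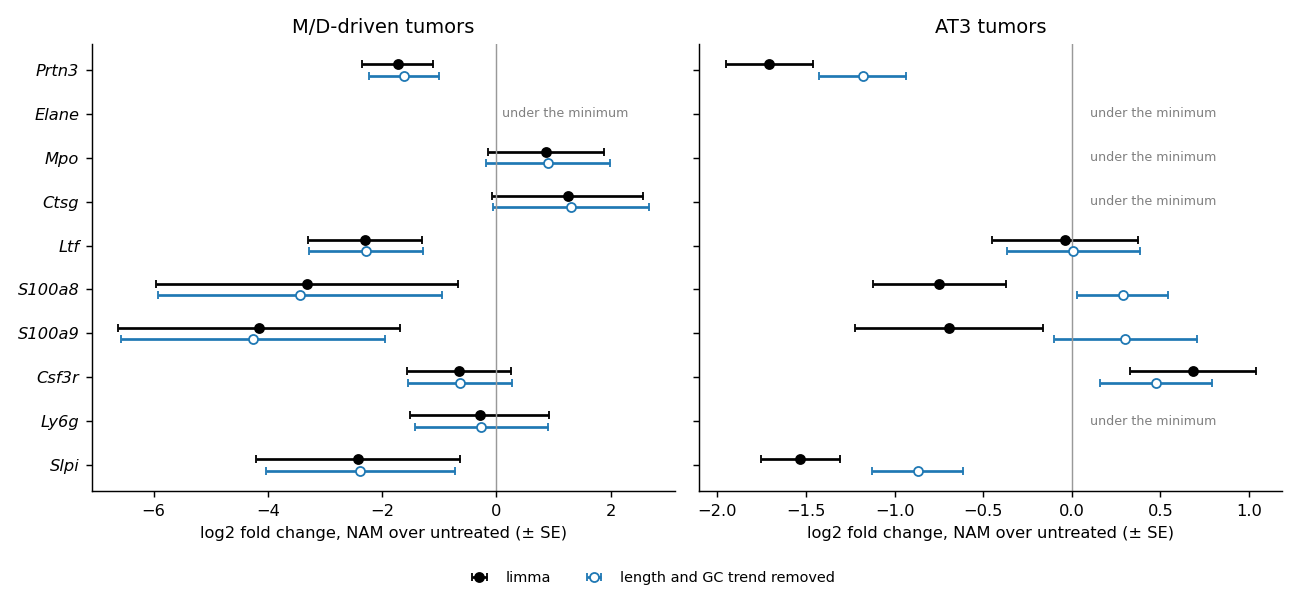
Log2 fold change of NAM-treated over untreated tumors with its SE, for the 10 genes in M/D-driven tumors (left, 4 and 4 tumors) and AT3 tumors (right, 3 and 3 tumors, on a narrower axis), before (black) and after (open blue) removal of the length and GC trend. Prtn3 stays below 0 in both models, S100a8 and S100a9 change sign in AT3 tumors, and genes under the minimum group mean are marked as such.

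The wider set of 114 neutrophil and antiprotease genes, in 8 lists by role, held few genes called with NAM in M/D-driven tumors. Of 103 genes tested, 1 was called higher and 5 lower, next to 3.03% and 3.19% of all genes. Ager, a receptor of S100 proteins, was higher in all 4 NAM-treated tumors, as were 2.43% of all genes (48.9 ± 23.1 against 205 ± 84.4 normalized counts, SD, n = 4 each, log2 fold change 2.03 ± 0.52, SE). The genes called lower were the stefins BC100530 (log2 fold change -7.69) and Stfa1 (-6.20), which inhibit cysteine proteases and belong to a family of near-identical genes among which reads may be split, the WAP domain genes Wfdc5 (-4.98) and Wfdc21 (-2.07), and Cebpa (-0.95), a transcription factor that starts the granulocytic program. Of these, Cebpa was lower in all 4 NAM-treated tumors, as were 2.0% of all genes (14984 ± 5074 against 7735 ± 2143, SD, n = 4 each), and the groups of the other genes overlapped. The median log2 fold change was -0.70 over the 103 genes, against 0.01 over all genes tested.

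This count depended on single tumors, NAM-treated tumor 2 above all. Without it, 30 listed genes were called lower, among them 9 of 24 genes of mature neutrophils, 7 of 11 of the S100 family and 6 of 15 of recruitment and survival, while the share of all genes called lower rose from 3.19% to 6.92%. The count was 8 without untreated tumor 2, 3 without untreated tumor 1, and 2 without untreated tumor 3 or 4 or NAM-treated tumor 3 or 4. Within experiment 1, thus without NAM-treated tumor 1, it was 4, with other genes among them. The mature neutrophil genes called lower fell from 3 (BC100530, Stfa1 and Wfdc21) to 1, and granulopoiesis factors rose from 1 to 2.

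The order of M/D-driven tumors by S100a8 was shared with many genes of mature neutrophils. For 19 of 24 such genes, including the chemokine receptor Cxcr2, the formyl peptide receptor Fpr1, the resistin-like Retnlg and the histone-citrullinating enzyme Padi4, the 4 highest tumors were again untreated tumors 1, 3 and 4 and NAM-treated tumor 2. Cxcr2 had 367, 109, 1380 and 1302 normalized counts in untreated and 159, 2087, 31.3 and 49.7 in NAM-treated tumors 1 to 4. The same 4 tumors were highest for 6 of 15 genes of recruitment and survival, such as Cxcl2, Cxcl3, Il1b and Csf2, but for 0 of 12 genes of the later granules and for 7.94% of all 21700 genes. Prtn3, Slpi, Ltf and Csf3r had other sets of 4 highest tumors. This order was looked for after the values had been seen and is given without a test.

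In AT3 tumors, 86 listed genes were tested, of which 6 were called higher and 18 lower with NAM, next to 12.2% and 10.9% of all genes. Higher were the oxidase subunit Cybb (log2 fold change 1.57), the transcription factor Runx1 (1.20), the integrin Itgam (1.18), the gelatinase Mmp9 (1.10), the growth factor Csf1 (0.81) and the serpin Serpina3n (0.78). Itgam and Cybb are also expressed by macrophages, and 5 of 9 macrophage marker genes were called higher in the same comparison, although their summed level ranged from 35823 to 61144 normalized counts without and from 39147 to 57232 with NAM. Their part in the higher values was not tested. The largest declines were those of Serpinb1b (-2.72, from 13.7 to 1.88 normalized counts on average), the S100 genes S100a14 (-1.85) and S100a6 (-1.51), the chemokine Cxcl15 (-1.51), the lipolysis inhibitor G0s2 (-1.50), the WAP genes Wfdc3 (-1.44) and Wfdc2 (-1.40), and arginase Arg1 (-1.25).

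Of the 18 genes called lower in AT3 tumors, 13 belonged to the S100 list or to the list of WAP, serpin and other antiproteases. Of the S100 family, 6 of 10 genes tested were called lower, next to 10.9% of all genes, and all 10 had negative log2 fold changes. Of the WAP, serpin and other antiproteases, 7 of 18 were called lower, next to the same share. After the length and GC trend had been removed, 2 genes of each of these lists were called lower, and 5 higher and 8 lower over all lists. With this step, no granulopoiesis factor was called higher and no later granule gene lower. The calls of Runx1 and Arg1 were thus lost. The median over the 86 genes moved from -0.42 to 0.05 with the same step. Among WAP genes, which share their domain with Slpi, Wfdc2 had 128625, 58180 and 95228 normalized counts in untreated and 43948, 42886 and 20728 in NAM-treated AT3 tumors. Its groups did not overlap, as for 11% of all genes tested. The count of 18 became 32 without untreated tumor 2 and 11 without untreated tumor 1, and the count of 6 became 3 without NAM-treated tumor 3.

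The comparison of untreated AT3 with untreated M/D-driven tumors was not used to choose the genes and is given with tests. However, it shares its untreated tumors with the NAM comparisons by which Prtn3 and Slpi were picked. The p-values of Prtn3 and Slpi between models are thus not independent of that choice. The comparison asks how the transplanted tumors differ from the carcinogen-driven ones before treatment, but tumor model, experiment and growth site cannot be told apart. Values were rescaled across the 7 untreated tumors, and genes were called at an adjusted p of at most 0.05 (limma, Benjamini-Hochberg over 21556 genes) and a fold change of at least 1.5, which called 27.2% of genes lower and 23.6% higher in AT3 tumors. Of the 6 genes tested, Ltf, S100a9 and Csf3r were called lower in AT3 tumors.

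Ltf showed a difference far beyond the spread between tumors. On the rescaled values it had 77684 ± 42837 normalized counts in M/D-driven (SD, n = 4) and 597 ± 56.2 in AT3 tumors (SD, n = 3), with a log2 fold change of -6.88 ± 0.36 (SE), which is 118-fold on the fitted log2 scale, and an adjusted p of 2.51e-05 by limma. S100a9 had 111948 ± 117395 and 105 ± 49.0 normalized counts, a log2 fold change of -7.98 ± 1.93 (SE, limma adjusted p = 0.00875). Csf3r had 598 ± 382 and 55.4 ± 6.25, a log2 fold change of -3.18 ± 0.50 (SE, limma adjusted p = 0.00132). For each of these 3 genes, all untreated AT3 tumors were below all untreated M/D-driven tumors, next to 27.9% of all genes.

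Prtn3 and Slpi were not among the genes called between models. Prtn3 had 848 ± 590 rescaled normalized counts in M/D-driven (SD, n = 4) and 1494 ± 303 in AT3 tumors (SD, n = 3), a log2 fold change of 1.03 ± 0.46 (SE, limma adjusted p = 0.0865). Without untreated M/D-driven tumor 2 it was called higher in AT3 tumors, at 1.43 (adjusted p = 0.00375). Slpi had 13483 ± 11415 and 10762 ± 1646, a log2 fold change of 0.14 ± 0.66 (SE, limma adjusted p = 0.871) whose sign depended on the setting. S100a8 had 45431 ± 54321 and 1157 ± 481, a log2 fold change of -2.98 ± 1.91 (SE, limma adjusted p = 0.215), and it was called lower, at -4.81 (adjusted p = 0.00515), without untreated M/D-driven tumor 2, in which it was at 214 normalized counts. Elane, Mpo, Ctsg and Ly6g did not reach the minimum in untreated tumors.

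Most listed neutrophil and antiprotease genes that differed between models were lower in AT3 tumors. Of 100 genes tested, 49 were called lower and 12 higher, next to 27.2% and 23.6% of all genes. The median log2 fold change of the 100 genes was -1.81, against -0.03 over all genes. Of the mature neutrophil genes, 17 of 24 were lower, next to the same 27.2%. Of these 24 genes, 18 reached the minimum group mean of 10 in the NAM comparison of AT3 tumors. Genes that reached it only in M/D-driven tumors were bound to lean toward lower values in AT3 tumors. This holds for every list and for all genes. The stefin BC100530 reached 170935 normalized counts in an untreated M/D-driven tumor and was at 0 in all AT3 tumors, Stfa2 was likewise at 0 in untreated AT3 tumors, Stfa1 had at most 2.03 normalized counts there, and Wfdc21 was lower by 5.58 ± 0.82 on the log2 scale (SE). The later granule genes were divided, with 6 of 11 lower and 2 higher, next to the same shares of all genes. The acute phase protein Hp (-3.36 ± 0.29), Cybb (-3.24 ± 0.29) and the granule glycoprotein Olfm4 (3853 ± 7530 against 0.643 ± 1.11 rescaled normalized counts, SD) were lower, whereas lipocalin Lcn2, a siderophore-binding protein of secondary granules that epithelia also secrete, was higher in AT3 tumors (47012 ± 37230 against 329652 ± 75878, SD, n = 4 and 3, log2 fold change 3.23 ± 0.69). Ltf and Lcn2, which share the secondary granule, therefore differed between models in opposite directions.

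Of the genes of neutrophil recruitment and survival, 7 of 15 were called lower in AT3 tumors, next to 27.2% of all genes, and 8 were not called. Csf3, which encodes G-CSF, had 39.5, 178, 666 and 637 normalized counts in untreated M/D-driven tumors 1 to 4 and at most 2.03 in untreated AT3 tumors. The interleukin Il1a (-5.92 ± 0.97) and the CXCR2 ligands Cxcl3 (-5.80 ± 1.57) and Cxcl5 (-3.97 ± 0.52) followed the same direction. Of 8 factors of granulopoiesis, Runx1 (-3.18 ± 0.32), Cebpa (-2.51 ± 0.25), Myb (-1.80 ± 0.44) and Spi1, which encodes PU.1 (-1.40 ± 0.23), were lower, and 1, Cebpb, was higher. Ctsc was the gene called among 4 primary granule genes tested (-2.14 ± 0.22). In the same comparison, 6 of 9 macrophage and 9 of 12 epithelial marker genes were lower in AT3 tumors, and their part in these differences was not tested.

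Antiproteases and S100 genes were mixed. Of 21 WAP, serpin and other antiprotease genes tested, 6 were lower and 4 higher in AT3 tumors, shares near the 27.2% and 23.6% of all genes. Wfdc3 (5.59 ± 1.24) and Wfdc2 (3.09 ± 0.90) were higher, and Wfdc5 (-4.79 ± 0.51) and Serpina3n (-2.87 ± 0.36) lower. Of the S100 family, 7 of 11 genes were lower and 1 higher, led by S100a14 (-6.72 ± 0.70), S100g (-4.10 ± 1.16), S100a3 (-3.70 ± 0.48) and S100b (-2.82 ± 0.63). Among 6 receptor genes of calprotectin, 4 were higher in AT3 tumors, namely Bsg (2.36 ± 0.30), Ager (2.20 ± 0.62), Cd14 (1.84 ± 0.37) and Ly96 (1.11 ± 0.34), and 1, Cd36 (-3.55 ± 0.34), was lower, all values being log2 fold changes with their SE (n = 4 and 3).

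The genes whose pattern was most like that of Prtn3 and Slpi were sought among 14856 genes with a single symbol that were tested with NAM in both models, by Pearson's r of log2 values centered on the mean of each model over the 14 tumors. Closest to Prtn3 were 1110008L16Rik (r = 0.89), Abhd11 (0.84), Fam180a (0.82), Tnfaip8l1 (0.81) and Gm38414 (0.80). Closest to Slpi were Gsto1 (0.95), Arg1 (0.94), Pxdc1 (0.94), Cxcl5 (0.93) and Anxa8 (0.93). Without NAM-treated M/D-driven tumor 1 these values lay between 0.80 and 0.89 for Prtn3 and between 0.89 and 0.93 for Slpi. Within the 6 AT3 tumors, r was 0.33 for Tnfaip8l1 with Prtn3 and for Cxcl5 with Slpi, against 0.93 and 0.95 within the M/D-driven tumors. For the other genes named here, r within AT3 tumors lay between 0.66 (Arg1 with Slpi) and 0.98 (Pxdc1 with Slpi). Among the 6 of the 10 genes tested in both models, r of Slpi over the 14 tumors was 0.83 with Csf3r, 0.82 with S100a8, 0.78 with Ltf and S100a9 and 0.37 with Prtn3. This order is that of the 8 M/D-driven tumors. It changed without NAM-treated M/D-driven tumor 1. Slpi then had an r of 0.83 with S100a8, 0.77 with S100a9, 0.73 with Csf3r, 0.64 with Ltf and 0.36 with Prtn3. Within the 6 AT3 tumors, r was 0.99 with Prtn3, 0.49 with S100a8, 0.44 with S100a9, 0.11 with Ltf and -0.73 with Csf3r, where Prtn3 and Slpi had been picked for being lower with NAM. All these tumors share 1 normalization per model, and the values describe likeness across tumors only.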

How the data were processed

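RNA was extracted from whole tumors, 1 tumor per library, and polyA-selected libraries were sequenced paired-end. Per the labels and the paper, the authors mapped reads with STAR 2.4.0 on mm10, counted them on the constitutive regions of the genes of Mouse FAST DB and normalized them with DESeq2, and they deposited the normalized signal per gene. M/D-driven and AT3 tumors were normalized apart, and every deposited value is a whole multiple of 1 step per tumor, so that read counts were recovered (all values whole within 0.001 reads). Groups were taken from the sample labels. Columns of 14 tumors were used and 0 were left unmapped.

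Linear models with a mean-variance trend (limma 3.58.1, R 4.3.3) were fitted to log2(value + 1) for genes whose mean reached 10 in 1 or more groups, and p-values were adjusted by the Benjamini-Hochberg method over all genes of a fit. A gene was called with NAM when its unadjusted p was 0.05 or below and its fold change 1.5 or above, the thresholds of the study's methods. These do not say whether p was adjusted, while the figure legends of the paper give adjusted p-values. At an adjusted p of at most 0.05, limma called 1 gene with NAM in each model, edgeR 0 and DESeq2 179 in M/D-driven and 2147 in AT3 tumors. For the comparison of models, values were rescaled by the median of ratios over the 7 untreated tumors. Alternatives were pseudocounts of 0.5 and 5, no filter or a minimum of 50, TMM scaling, edgeR 4.0.16 and DESeq2 1.42.0 on the recovered reads, a replicate block, removal of a spline trend (4 degrees of freedom) with the length and GC content of the longest GENCODE M21 transcript, each tumor left out in turn, and NAM-treated in place of untreated tumors. Levels were compared between genes per kb of that transcript. The fits were tested on simulated data: of 200 genes changed 4-fold at the dispersion of the files, limma recovered 147 in M/D-driven tumors (21927 genes) and 174 in AT3 tumors (19247 genes) at the unadjusted threshold, but 0 and 116 at an adjusted p of at most 0.05, at which it recovered 71 between models (21678 genes).

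The 10 genes, the gene lists and the tests were chosen with earlier results of these data known. All 10 genes are named. Of the lists, at most 8 genes per direction called with NAM and at most 4 per list called between models are named by size of change, and the 5 genes with the highest correlation with Prtn3 and with Slpi. Cebpb and Ly96, called between models, are named in addition. The paper gives group sizes as numbers of mice. Promoters were taken from RefSeq (GRCm38.p6).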

Additional observations from a re-analysis of the deposited data

How the results depend on the processing

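Prtn3 stayed below 0 with NAM under every alternative run in both models (log2 fold change -2.05 to -1.21 in M/D-driven and -1.81 to -1.18 in AT3 tumors), and so did Slpi in AT3 tumors (-1.69 to -0.87). In M/D-driven tumors, Slpi ranged from -4.20 to 0.48. Ltf was called lower with NAM in 10 of 18 fits of M/D-driven tumors, neither edgeR (-1.49) nor DESeq2 (-1.45) being among them. Between models, Ltf was called lower in 19 of 19 fits and S100a9 and Csf3r in 17 each. With NAM-treated in place of untreated tumors, Ltf was the only one of the 10 genes called, so that the count of genes called lower was 1, with or without M/D-driven tumor 1 (added after the data had been seen), against 3, and S100a9 was at -4.56 and Csf3r at -1.88 (adjusted p = 0.179 and 0.246, limma). S100a8 was called lower between models by edgeR (-5.39) and DESeq2 (-5.30). Slpi, at 0.14 between models, turned to -0.32 with DESeq2, -0.40 with edgeR, -0.40 with the length and GC trend removed and -0.10 with NAM-treated tumors without M/D-driven tumor 1, and ranged from -0.45 to 0.65 as tumors were left out. The cause was not tested.

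With NAM in M/D-driven tumors, 658 genes were called higher, against 1287 with DESeq2, 992 with edgeR, 350 with the trend removed, 312 at a minimum of 50 and 1219 without filter. In AT3 tumors, 2100 genes were called lower and 2358 higher, against 1197 and 1441 with the trend removed, which also took the listed genes called lower from 18 to 8. Between models, 5867 genes were called lower and 5083 higher, against 1054 and 617 in NAM-treated tumors, and 2352 and 1238 in these without M/D-driven tumor 1. Tumors with the same replicate number did not deviate together (correlations -0.44 to 0.11 in M/D-driven, -0.16 to 0.26 in AT3 tumors), so that the numbers do not pair them. A replicate block gave 2 instead of 1 listed genes called higher in M/D-driven tumors and 3355 genes called higher between models, called S100a8 lower with NAM in AT3 tumors (-0.75), and called 1296 AT3 genes at an adjusted p of at most 0.05 against 1 without the block.

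As single tumors were left out, genes called lower with NAM ranged from 351 to 1511 and higher from 395 to 1201 in M/D-driven tumors, and from 714 to 3310 and 904 to 3459 in AT3 tumors. The extremes came without NAM-treated tumor 2 or untreated tumor 4 for genes called lower and without NAM-treated tumor 2 or untreated tumor 1 for genes called higher in the M/D-driven model. In the AT3 model they came without untreated tumor 2 (highest count lower), NAM-treated tumor 1 (highest count higher) and NAM-treated tumor 3 (lowest count of both). Listed genes called lower ranged from 2 to 30 and higher from 1 to 2 in M/D-driven tumors, and from 11 to 32 and 3 to 6 in AT3 tumors. Of the 10 genes, 3 to 5 were called lower and 0 to 1 higher between models. With 3 or 4 tumors per group, differences of genes with few reads (Elane, Mpo, Ctsg, Ly6g) were not detectable at this depth.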
